A study of Mus musculus with 12 samples.

Results

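Neurofilaments and the proteins that bind and build neuronal microtubules make up the inner skeleton of the axon and dendrite. The genes described here are 10 members of that skeleton, taken by symbol from the deposited expression table, which lists 24091 genes. They are the neurofilament genes Nefl, Nefm, Nefh and Ina, the microtubule-associated genes Map1b, Map2, Mapt and Dcx, the neuronal beta-tubulin Tubb3 and the tubulin-binding stathmin Stmn2. All 10 were found, once each, and all 10 passed the expression filter in every comparison, so no member is missing from a count.

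As background, neurofilaments are built from a light, a medium and a heavy chain (Nefl, Nefm and Nefh) together with alpha-internexin (Ina). Alpha-internexin appears early in a neuron's life, whereas the light, medium and heavy chains accumulate as axons grow in caliber and become myelinated. Microtubules of young neurons carry doublecortin (Dcx) and Map1b, and young neurons also make the tubulin-binding Stmn2 (SCG10). These proteins are known for roles in migration and growth cones. Map2 marks dendrites and Mapt (tau) marks axons of mature neurons. Granule neurons of the cerebellum, which come from proliferating progenitors, pass through a doublecortin-positive stage as they leave the cell cycle and migrate inward. The members were therefore read in classes: 4 early-neuron genes (Dcx, Tubb3, Stmn2 and Map1b), 5 late-neuron genes (Nefl, Nefm, Nefh, Map2 and Mapt), and Ina, which was put in neither.

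RNA sequencing had been performed on 12 mouse samples in 4 groups of 3. The first group held medulloblastomas of Brca2-mut;Trp53-mut mice (GB344, GB359 and GB370), and the second held the cerebellum next to the tumor from these same mice. The others were cerebella of mice mutant for 1 of the genes. They were 3 Brca2-mut;Trp53-WT (GB361, GB508 and GB512) and 3 Brca2-WT;Trp53-mut (GB517, GB519 and GB520). These 6 together are called the control cerebella. The paper's supplement names Brca2-WT cerebella as P90, and the paper calls its control cerebella age-matched to the tumors. In this model Cre driven by the human GFAP promoter (hGFAP-Cre) cuts out exons 3 to 4 of floxed Brca2 in neural cells of the developing brain, and the Trp53 null allele is present in every cell of the mouse. The mutant Brca2 was thus shared by tumors, adjacent cerebella and GB361, GB508 and GB512, and the Trp53 null by tumors, adjacent cerebella and GB517, GB519 and GB520. No cerebellum wild type for both genes was analysed here, and whether the Brca2-WT mice carried Cre is not given in the sources used here. The paper states that tumors were collected at humane endpoints, and the labels give no age for any sample.

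Values are TPM, transcript abundance scaled for transcript length and library, so levels of different genes can be compared, and all TPM below are levels. Depth per sample is unknown, since TPM keeps no read count, and errors are SD between mice. Between 15088 and 15803 genes per sample reached 1 TPM. Brca2 (8.22 to 14.6 TPM in tumors, 4.52 to 6.98 in adjacent cerebella, 3.24 to 4.40 in controls) and Trp53 (124 to 130.5 TPM in tumors, 66.1 to 85.0 in adjacent cerebella, 47.1 to 49.4 in Brca2-WT;Trp53-mut and 33.1 to 37.2 in Brca2-mut;Trp53-WT cerebella) are sums over all transcripts of a gene and do not check the deletions. The tissue labels were checked with marker genes. Summed over 7 granule progenitor and proliferation markers, TPM was 1253 to 2019 in tumors, 91.6 to 686 in adjacent cerebella and 35.6 to 60.3 in controls. Summed over 6 mature granule neuron markers, it was 118 to 392 in tumors, 2063 to 2826 in adjacent cerebella and 2546 to 3315 in controls. The 5 choroid plexus markers ranged from 17.9 to 5169 TPM among controls.

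Tumors against control cerebella gave the widest contrast. Nefl, Nefm and Nefh were nearly lost from the tumors, at 1.86%, 5.88% and 1.99% of the control mean. Dcx rose 37.3-fold in TPM. Mapt, Map1b, Stmn2 and Ina fell by smaller amounts, to between 20.7% and 45.7% of control, while Tubb3 and Map2 did not pass the threshold. Of the 10 members 1 was called higher (Dcx) and 7 lower, against a background of 14.4% of 16241 genes called higher and 21.5% called lower (35.9% in all). Calls were made in limma on log2(TPM + 1) and required both an adjusted p below 0.01 and a log2 fold change of 1 or more in either direction. These 8 members were also the ones whose tumor and control samples did not overlap, and 64% of all genes tested were likewise separated (28.3% higher and 35.7% lower). On the log2 scale the members had a median fold change of -1.30, and all genes tested one of -0.11. In bulk tissue, fewer cells of a type and less RNA per cell cannot be told apart. Tumors carried both mutations and each control 1, so genotype and tumor state cannot be told apart either.

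**Figure D1:**
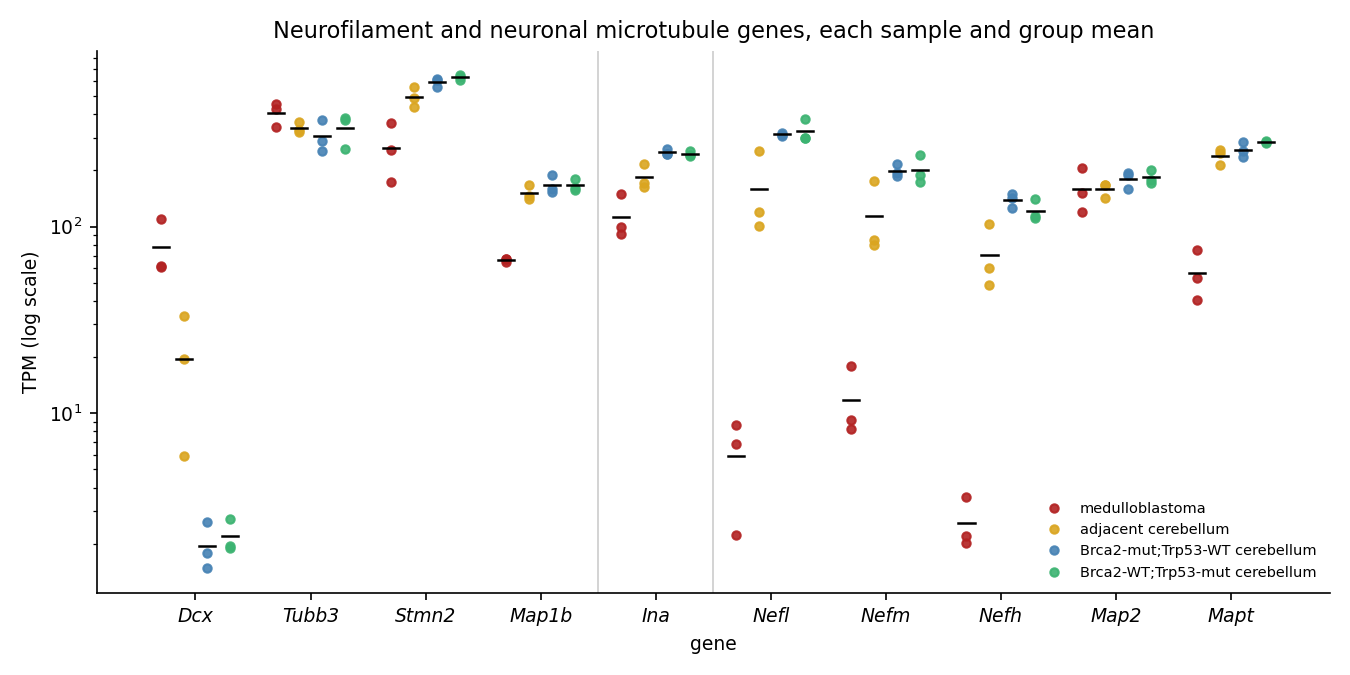
TPM of the 10 members (horizontal axis) in each of 12 samples on a log scale. Points are samples, colored by group, and black lines are group means of 3 mice, with early-neuron genes on the left, Ina in the middle and late-neuron genes on the right. Dcx lies highest in the tumors, Nefl, Nefm and Nefh lie 1 to 2 orders of magnitude below the other groups there, and Tubb3 and Map2 overlap across all groups.

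Dcx (Entrez Gene 13193, mm10 chromosome X, 143855842 to 143933396) encodes doublecortin, which bundles microtubules in migrating neurons. Dcx stood at 61.6, 110.0 and 60.4 TPM in the tumors of GB344, GB359 and GB370, and at 33.1, 19.4 and 5.91 TPM in the adjacent cerebella of these mice. In the Brca2-mut;Trp53-WT cerebella it was 1.48, 1.78 and 2.62 TPM and in the Brca2-WT;Trp53-mut cerebella 1.90, 1.95 and 2.72 TPM. Every tumor lay above every adjacent cerebellum, and every adjacent cerebellum above every control. Dcx rose in tumors against controls by a log2 fold change of 4.63 (SE 0.21, limma adjusted p = 3.43e-08), which ranked 78 from the top of 16241 genes.

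The light chain Nefl (chromosome 14, 68083863 to 68089095), the core on which neurofilaments assemble, was at 2.23, 6.87 and 8.67 TPM in tumors and at 100.4, 254 and 119.6 TPM in adjacent cerebella. Controls held 309, 319 and 307 TPM in Brca2-mut;Trp53-WT and 298, 298 and 375 TPM in Brca2-WT;Trp53-mut cerebella. All 3 groups of tissue were separate, with adjacent cerebella between tumors and controls. Nefl fell by 5.66 on the log2 scale in tumors against controls (SE 0.28, limma adjusted p = 5.09e-08), the 4th lowest of all genes tested.

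Nefm, the medium chain (chromosome 14, 68119545 to 68125004), lies on the same chromosome as Nefl. It was at 9.24, 8.23 and 17.8 TPM in tumors, 85.1, 176 and 79.3 TPM in adjacent cerebella, and between 173 and 241 TPM in the 6 controls. The adjacent cerebellum of GB359 reached the lower end of the control range, and those of GB344 and GB370 did not. Nefh, the heavy chain with the long side arm (chromosome 11, 4938754 to 4948064), was at 3.57, 2.01 and 2.20 TPM in tumors, 48.4, 103 and 60.1 TPM in adjacent cerebella and between 111 and 149 TPM in controls. Its log2 fold change in tumors against controls was -5.21 (SE 0.15, limma adjusted p = 6.06e-09), and that of Nefm was -4.04 (SE 0.20, limma adjusted p = 5.86e-08). Ratios among the 3 chains varied from tumor to tumor, at low tumor levels and with unknown read depth, so their precision is unknown. The ratio of Nefm to Nefh TPM was 2.59, 4.09 and 8.12 in the tumors of GB344, GB359 and GB370, against 1.31 to 1.72 in the control cerebella. The ratio of Nefl to Nefm was 0.241, 0.835 and 0.486 in tumors and 1.47 to 1.72 in controls.

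Ina, the alpha-internexin gene (chromosome 19, 47014681 to 47025327), fell far less than the other neurofilament genes. Its level was 90.8, 149 and 99.2 TPM in tumors, 170.4, 217 and 163 TPM in adjacent cerebella and 239.9 to 261 TPM in controls. The 3 tissues did not overlap. Ina fell by 1.16 on the log2 scale in tumors against controls (SE 0.13, limma adjusted p = 1.98e-05), a call that quantile normalization ends by the fold minimum alone (-0.995, limma adjusted p = 2.27e-05). Of the TPM summed over Nefl, Nefm, Nefh and Ina, tumors held 84.3% ± 6.19 as Ina (SD, n = 3), adjacent cerebella 36.6% ± 6.83 (SD, n = 3) and controls 27.7% ± 1.67 (SD, n = 6). That sum came to 133 ± 30.4 TPM in the 3 tumors, 526 ± 195 TPM in the 3 adjacent cerebella and 895 ± 67.6 TPM in the 6 controls. The ratio of Ina to Nefl TPM was 40.7, 21.7 and 11.5 in the tumors, 1.70, 0.854 and 1.36 in the adjacent cerebella, and 0.675 to 0.843 in controls. These ratios and shares were chosen after the values were seen and were not tested.

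No early-neuron gene other than Dcx was called higher in tumors. Stmn2 (chromosome 3, 8509527 to 8561604), a tubulin-binding protein of growth cones, was at 174, 360.98 and 258 TPM in tumors, 437, 562 and 492 TPM in adjacent cerebella and 557 to 646 TPM in controls. Map1b (chromosome 13, 99421464 to 99516602), a microtubule-associated protein of growing axons, was at 64.7, 66.9 and 66.7 TPM in tumors, 146, 139.8 and 166 TPM in adjacent cerebella and 153 to 189 TPM in controls. Map1b varied little among the tumors, around a mean of 66.1 TPM. Stmn2 fell by 1.27 (SE 0.18, limma adjusted p = 9.40e-05) and Map1b by 1.32 (SE 0.08, limma adjusted p = 1.98e-07) on the log2 scale against controls. Both stood above 150 TPM in every control cerebellum, so an early-neuron gene in this grouping could be abundant in adult tissue.

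Tubb3 (chromosome 8, 123411553 to 123422015), the beta-tubulin isotype used as a neuronal marker, was at 451, 424 and 343 TPM in tumors, 364, 331 and 321 TPM in adjacent cerebella and 255 to 381 TPM in controls. Tumors and controls overlapped, and the log2 fold change was 0.35 (95% interval -0.01 to 0.71, limma adjusted p = 0.0746). Map2 (chromosome 1, 66175202 to 66442583) was at 119.6, 206 and 152 TPM in tumors, 167, 168 and 143 TPM in adjacent cerebella and 160.0 to 202 TPM in controls. The groups overlapped for Map2 too, with a log2 fold change of -0.23 (95% interval -0.56 to 0.10, limma adjusted p = 0.190). These intervals leave out a change of 2-fold in either direction on this scale. Mapt (chromosome 11, 104229409 to 104332090), the tau gene, was at 40.6, 74.7 and 52.9 TPM in tumors, 214, 249 and 256 TPM in adjacent cerebella and 235 to 287 TPM in controls. Tumors lay below all other samples, and Mapt fell by 2.29 on the log2 scale (SE 0.16, limma adjusted p = 4.26e-07). Map2 and Mapt therefore parted in the tumors, and the ratio of Map2 to Mapt TPM was 2.76 to 2.95 in tumors, 0.558 to 0.781 in adjacent cerebella and 0.609 to 0.745 in controls.

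**Figure D2:**
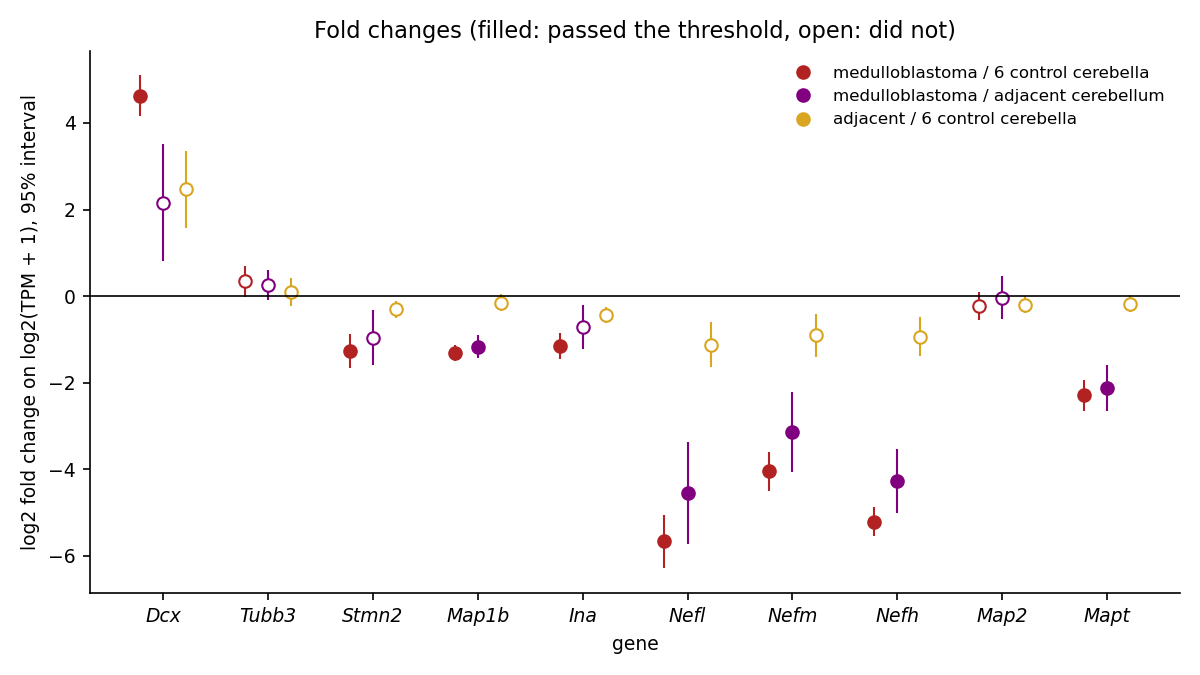
Log2 fold changes of the 10 members (horizontal axis) in 3 comparisons, fitted on log2(TPM + 1), with 95% intervals from limma. Filled points passed the threshold and open points did not. Against controls, tumors have 8 filled points, of which Dcx alone is above 0, and adjacent cerebella have none.

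Promoter sequence was available for 5 of the 10 members. RefSeq windows of the 250 bases before the annotated start (GRCm38.p6, the mm10 assembly) were matched by symbol, and the part upstream of every annotated start is printed 5′ to 3′ on the strand of the gene. They describe sequence only, and their part in the levels of these genes was not tested. Capitals mark 4 motifs on either strand. They are the TATA box (letters TATAAA), the GC box (letters GGGCGG) and the E-box of basic helix-loop-helix factors, read as CAGCTG or as CAGATG. No printed motif overlaps another.
Dcx, chrX:143933397-143933469, minus strand: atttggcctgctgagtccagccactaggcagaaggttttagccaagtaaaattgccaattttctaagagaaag
Tubb3, chr8:123411303-123411423, plus strand: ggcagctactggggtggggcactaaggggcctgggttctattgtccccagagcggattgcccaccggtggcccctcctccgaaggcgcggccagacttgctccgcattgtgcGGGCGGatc
Map1b, chr13:99516603-99516852, minus strand: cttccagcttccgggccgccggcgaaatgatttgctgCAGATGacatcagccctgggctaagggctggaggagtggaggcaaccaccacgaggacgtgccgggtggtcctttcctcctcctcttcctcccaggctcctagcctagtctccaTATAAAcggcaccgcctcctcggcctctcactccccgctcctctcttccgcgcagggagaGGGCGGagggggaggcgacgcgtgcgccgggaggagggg
Map2, chr1:66175079-66175201, plus strand: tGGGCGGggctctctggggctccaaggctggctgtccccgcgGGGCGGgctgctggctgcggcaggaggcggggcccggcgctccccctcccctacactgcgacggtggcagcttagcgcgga
Ina, chr19:47014431-47014680, plus strand: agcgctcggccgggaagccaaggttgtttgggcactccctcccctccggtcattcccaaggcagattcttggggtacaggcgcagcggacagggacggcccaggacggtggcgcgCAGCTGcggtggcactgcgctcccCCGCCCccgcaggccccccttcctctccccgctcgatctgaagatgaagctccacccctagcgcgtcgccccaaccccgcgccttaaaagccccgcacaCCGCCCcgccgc
Dcx had 2 RefSeq windows, of which the first listed was used and the other is not described. In the windows used, 73 bases of Dcx, 121 of Tubb3 and 123 of Map2 lay upstream of every annotated start. All 250 bases did so for Map1b and Ina, so the full windows are not alike in position. Over the full window of 250 bases, Dcx had 41.6% G and C and 3 CpG dinucleotides, below the medians of 52.4% and 6 over 32851 RefSeq windows of that length. Tubb3, Map1b, Map2 and Ina had 66.4% to 81.2% G and C and 19 to 34 CpG. GGGCGG was in the windows of Tubb3, Map1b, Map2 and Ina and not in that of Dcx, and 32.7% of all windows hold it. TATAAA, which 12.4% of all windows hold, was in the windows of Map1b and Dcx, in Dcx outside the printed stretch. CAGCTG (13.0% of all windows) was in that of Ina and CAGATG (14.4%) in that of Map1b. A match describes the letters and is not a site in use. Stmn2, Nefl, Nefm, Nefh and Mapt are named without sequence.

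Tumors were next compared with the cerebellum beside them in the same mice. Nefl, Nefm, Nefh, Mapt and Map1b fell in the tumors, and no member rose past the threshold. This gave 5 members called lower and 0 higher, against 18% of 15845 genes called lower and 4.76% called higher (22.8% in all), and 8 members had unadjusted p under 0.05. Over all genes 755 were higher and 2852 lower, or 1599 and 2185 under quantile normalization. Nefl was at 3.74% of the adjacent mean (log2 fold change -4.54, SE 0.50, limma adjusted p = 0.000588). Nefh was at 3.68% (-4.27, SE 0.31, limma adjusted p = 0.000200) and Nefm at 10.4% (-3.14, SE 0.39, limma adjusted p = 0.000936). Mapt fell by 2.12 on the log2 scale (SE 0.22, limma adjusted p = 0.000518) and Map1b by 1.17 (SE 0.11, limma adjusted p = 0.000388). Map1b misses the fold minimum under median-of-ratios scaling (-0.99) and quantile normalization (-0.998).

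Dcx, Stmn2 and Ina were separated between tumor and adjacent cerebellum without passing the threshold. Dcx was 3.97-fold higher in TPM (log2 fold change 2.16, SE 0.57, limma adjusted p = 0.0189), and it passed without the adjacent cerebellum of GB344 (2.66, limma adjusted p = 0.00930), in a fit with all 4 groups (limma adjusted p = 0.00204) and under quantile normalization (limma adjusted p = 0.00998). Stmn2 was lower (log2 fold change -0.96, limma adjusted p = 0.0222), and it passed without the tumor of GB359 (-1.22, limma adjusted p = 0.00870). Ina was lower as well (-0.72, limma adjusted p = 0.0296). Non-overlap between these groups, seen for 8 members, held for 62.6% of all genes tested (23.7% higher and 38.9% lower in tumors). Tubb3 (0.25, 95% interval -0.09 to 0.60) and Map2 (-0.03, 95% interval -0.52 to 0.46) overlapped.

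Adjacent cerebella were also compared with the 6 controls. Adjacent cerebella carried both mutations and each control 1, so genotype and nearness to a tumor cannot be told apart here. No member was called in limma, against a background of 0.236% of 16091 genes (0.224% higher and 0.0124% lower), although 7 members had unadjusted p under 0.05. Dcx was 9.40-fold higher in TPM (log2 fold change 2.47, SE 0.40, limma adjusted p = 0.0111) and lay above every control in all 3 mice. Nefl was at 49.8% of the control mean (-1.12, SE 0.24, limma adjusted p = 0.0190), Nefh at 54.2% (-0.94, SE 0.20, limma adjusted p = 0.0198), Nefm at 56.7% (-0.90, SE 0.22, limma adjusted p = 0.0278) and Ina at 74.2% (-0.44, SE 0.09, limma adjusted p = 0.0165). Nefl, Nefh and Ina lay below every control in all 3 mice, and 19.3% of all genes were separated (11.7% higher and 7.64% lower). Map2 (-0.19), Mapt (-0.17), Map1b (-0.15) and Tubb3 (0.10) overlapped the controls, and Stmn2 was at -0.31 (limma adjusted p = 0.0392). All-gene counts were 36 higher and 2 lower, or 41 and 18 under quantile normalization. This comparison and the comparison of tumors with controls share the 6 control samples, and the comparison of tumors with adjacent cerebella shares samples with both.

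The calls in adjacent cerebella turned on single mice, and not on the same mouse for each gene. Without the adjacent cerebellum of GB370, Dcx was called higher (log2 fold change 3.12, limma adjusted p = 6.23e-05), and 586 genes were called in place of 38. Without the adjacent cerebellum of GB359, Nefl (-1.52, limma adjusted p = 0.00236), Nefm (-1.26, limma adjusted p = 0.00471) and Nefh (-1.25, limma adjusted p = 0.00541) were called lower. Dcx was also called higher with a pseudocount of 0.01 and under median-of-ratios scaling, quantile normalization or rescaling without Mir6236 (limma adjusted p between 0.00871 and 0.00979).

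Read mouse by mouse, the members fell into different patterns in the adjacent tissue. Dcx in the adjacent cerebella of GB344, GB359 and GB370 was 1598%, 937% and 285% of the control mean. The summed progenitor markers were 1627%, 1158% and 217% of it in the same order, and the progenitor factor Atoh1 was at 59.4, 50.5 and 4.997 TPM against 0.0 to 0.212 TPM in controls. Nefl was 31.6%, 80.1% and 37.7% of the control mean, Nefm 42.6%, 87.8% and 39.6%, and Nefh 37.2%, 79.2% and 46.2%. The sum of 6 oligodendrocyte markers was 37.4%, 101% and 46.0%, so GB359 was the mouse nearest to control for myelin genes as for neurofilaments. GB370 thus combined neurofilament levels well below control with the lowest progenitor signal of the 3. Its summed markers of neurons in general were 98.2% of control, those of mature granule neurons 92.5% and those of Purkinje cells 82.9%. GB359 was also nearest to control for Ina (68.9%, 87.8% and 66.0%) and Stmn2 (71.4%, 91.7% and 80.3%). For Mapt (79.2%, 91.9% and 94.7%) and Map1b (87.3%, 83.8% and 99.5%) GB370 was nearest. These values over 3 mice are a description chosen after the values were seen, and the part of marker genes in them was not tested.

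**Figure D3:**
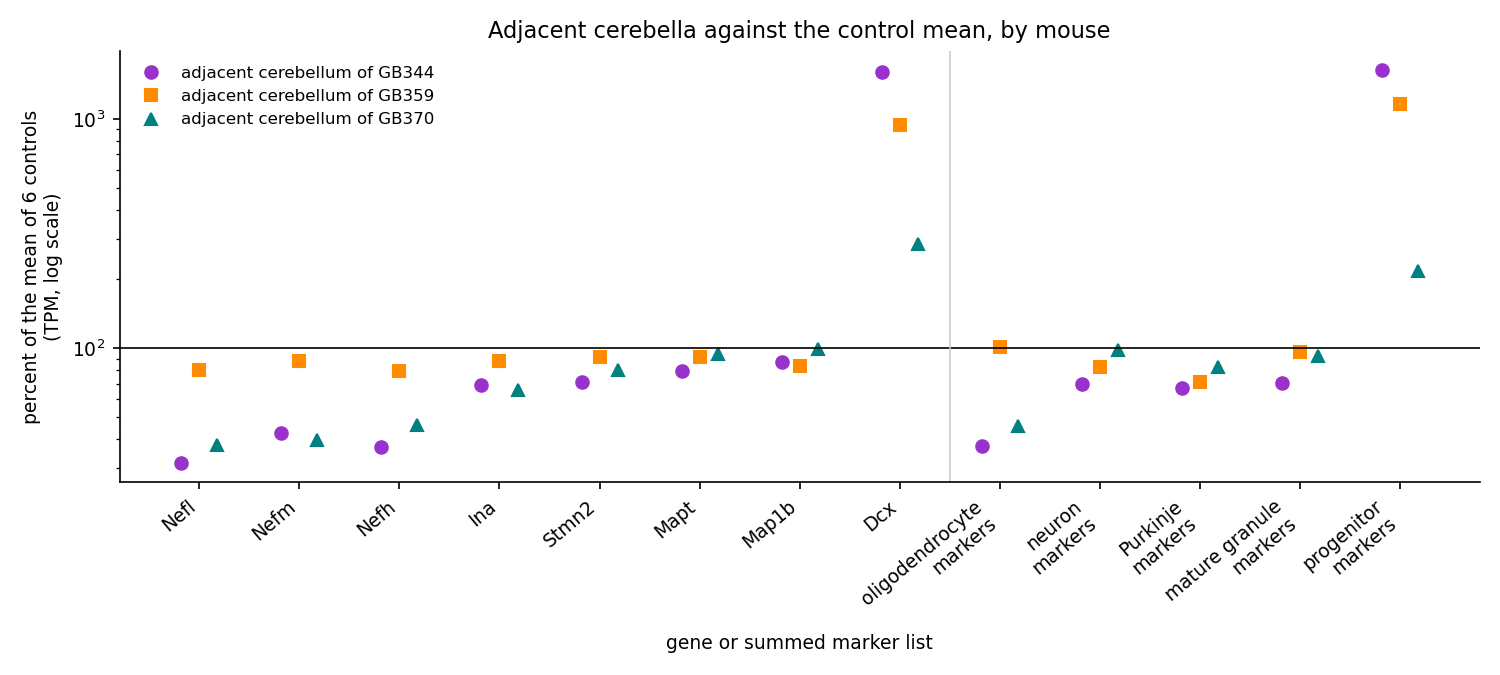
Levels in the adjacent cerebellum of each of 3 mice as a percent of the mean of the 6 control cerebella, on a log axis, for 8 members (left) and 5 summed marker lists (right). Each symbol is 1 mouse. GB359 (square) lies highest of the 3 for Nefl, Nefm, Nefh and the oligodendrocyte markers, and GB370 (triangle) lies lowest for Dcx and the progenitor markers.

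Another way to place adjacent tissue is between the control mean (0%) and the tumor of the same mouse (100%). For Dcx the adjacent cerebella of GB344, GB359 and GB370 stood at 52.2%, 16.1% and 6.57% of that distance, and for the progenitor marker sum at 53.2%, 22.6% and 2.76%. For Nefl they stood at 68.9%, 20.3% and 64.1%, for Nefm at 60.2%, 12.7% and 66.3%, and for Nefh at 64.6%, 21.1% and 54.7%. Mapt was at 24.5%, 11.2% and 6.65%, and the general neuron marker sum at 32.4%, 19.7% and 2.08%. In GB370 the neurofilament chains stood past the midpoint toward the tumor while Dcx and Mapt stood near the controls. The 10 listed markers of deep nuclei and brainstem summed to 52.4, 94.0 and 17.1 TPM in the adjacent cerebella of GB344, GB359 and GB370 and to 55.2 to 89.4 TPM in controls. Of these 10 genes 4 passed the expression filter, and they did not move together. Spp1 (23.2, 61.3 and 10.4 TPM) and Slc17a6 (25.0, 28.4 and 3.31 TPM), which carry the sum, were lowest in GB370. Hoxb3 (0.376, 1.38 and 1.25 TPM) and Hoxb4 (1.30, 0.550 and 1.13 TPM) were not. In the tumors the sum was 66.6 to 93.9 TPM, with the neurofilament chains nearly lost. Which cells these markers come from in tumors, and their part in neurofilament levels, was not tested.

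Between the control genotypes, the skeleton genes were close to each other. No member was called in limma, 0 members had unadjusted p under 0.05, and no member was separated between the groups, against a background of 0.0578% of 15575 genes called (0.0128% higher and 0.0449% lower) and 27% separated (6.7% higher and 20.3% lower). Log2 fold changes ran from -0.14 (Tubb3) to 0.19 (Nefh), with limma adjusted p from 0.337 to 0.998. The widest 95% interval among the 10 was that of Dcx, from -0.56 to 0.32, at levels near 2 TPM. The summed Purkinje markers did not overlap between these groups (6113 to 7550 TPM in Brca2-mut;Trp53-WT and 4438 to 4839 TPM in Brca2-WT;Trp53-mut), and neither did the choroid plexus markers (17.9 to 874 and 3950 to 5169 TPM).

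Putting the classes together, early-neuron and late-neuron genes moved apart mainly through the late genes. The mean log2(TPM + 1) of the 4 early genes was 7.07 to 7.53 in tumors and 6.51 to 6.82 in controls, while that of the 5 late genes was 3.91 to 4.44 in tumors and 7.63 to 7.88 in controls. The higher early mean in tumors rested on Dcx. Against controls the log2 fold change was 4.63 for Dcx, 0.35 for Tubb3, -1.27 for Stmn2 and -1.32 for Map1b. No version of the difference given here leaves Dcx out. The early minus late difference was 3.16, 3.19 and 2.68 in the tumors of GB344, GB359 and GB370 and 0.62, -0.25 and -0.01 in the adjacent cerebella. It was -1.12 ± 0.15 (SD, n = 3) in Brca2-mut;Trp53-WT and -1.03 ± 0.07 (SD, n = 3) in Brca2-WT;Trp53-mut cerebella. Tumors, adjacent cerebella and controls did not overlap, and no test was made of this difference. The choice of genes set its size: with the late class limited to Map2 and Mapt it was 0.70 in tumors and -0.45 in adjacent cerebella, and with the 3 neurofilament chains alone 4.55 and 0.50. Within the early class, 1 gene was called higher in tumors against controls, 2 were called lower and 1 was not called, so the class did not move as a block. Within the late class 4 were called lower and 1 was not called.

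Profiles over the 12 samples were compared with 12737 genes of mean TPM of at least 5, by the root mean square difference of log2(TPM + 1) after centering each gene. The profile nearest to Dcx was that of Lmnb1 (0.286 on the log2 scale), followed by Dcc and Kntc1. The nearest to Nefl were Rgs8 (0.314), the myelin gene Mobp (0.328) and Scn4b (0.356), and the nearest to Nefh were Tuba4a (0.390), Scn4b (0.394) and Itpka (0.445). Nefm was nearest to Kcnab1 (0.302), Abhd3 and Vamp1. Mapt lay nearest to Micu3 (0.0616) and Map1b to Rab3gap1 (0.0582). Stmn2 was nearest to Aig1 (0.0945), Ina to Svip (0.108), Tubb3 to Spata5l1 (0.122) and Map2 to Tnks2 (0.0834). This distance is not scaled to the spread of a gene, so members that vary little have small values. The spread of each member around its own mean (root mean square) was 0.571 for Stmn2, 0.507 for Ina, 2.38 for Nefl, 2.17 for Nefh, 1.70 for Nefm and 2.01 for Dcx. Between members, the distance was 0.147 for Stmn2 and Ina, 0.520 for Nefl and Nefh, 0.592 for Nefm and Nefh and 0.743 for Nefl and Nefm, and it was 4.25 for Dcx and Nefl.

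The other genes of the same skeleton were read from lists chosen by function. Their counts stand against the 14.4% of all genes called higher and 21.5% called lower between tumors and controls. Tubulins, the subunits of microtubules, differed by isotype between tumors and controls. Of 11 tubulin genes besides Tubb3, 5 were called higher in tumors than in controls, 3 lower and 3 did not pass, with a median log2 fold change of 0.62. Tubb5, the beta-tubulin of dividing cells, was at 1104, 1223 and 1473 TPM in tumors, 607, 481 and 218 TPM in adjacent cerebella and 181 to 236 TPM in controls (log2 fold change 2.66, SE 0.11, limma adjusted p = 2.34e-08). Tuba1c rose too (2.49, limma adjusted p = 0.000407), whereas Tuba4a (-4.50, limma adjusted p = 1.99e-10) and Tuba8 (-4.47, limma adjusted p = 1.98e-07) fell. Tuba4a was at 16.1 to 17.7 TPM in tumors and 387 to 441 TPM in controls.

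Shares of beta-tubulin show where Tubb3 stood among the isotypes. Tubb5 was 41.9% ± 3.73 (SD, n = 3) of the summed beta-tubulin TPM in tumors and 8.81% ± 0.783 (SD, n = 6) in controls, and Tubb2b was 25.8% ± 2.92 and 9.17% ± 1.69. Tubb4a, a beta-tubulin of mature neurons and oligodendrocytes, was 4.09% ± 1.12 in tumors, 38.9% ± 10.1 in adjacent cerebella and 43.0% ± 2.999 in controls. Tubb3 made up 13.6% ± 2.88 in tumors, 13.6% ± 0.504 in adjacent cerebella and 14.2% ± 2.31 in controls. The summed beta-tubulin TPM was 3019.65 ± 248 in tumors and 2255 ± 85.0 in controls. Tubulin isotypes are near-identical in parts of their sequence, and how reads were split among them by the quantification is uncertain. Tubb2b, Tubb4a and Dclk2, and the markers Atoh1, Spp1, Slc17a6, Hoxb3 and Hoxb4, are named after their values were seen.

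**Figure D4:**
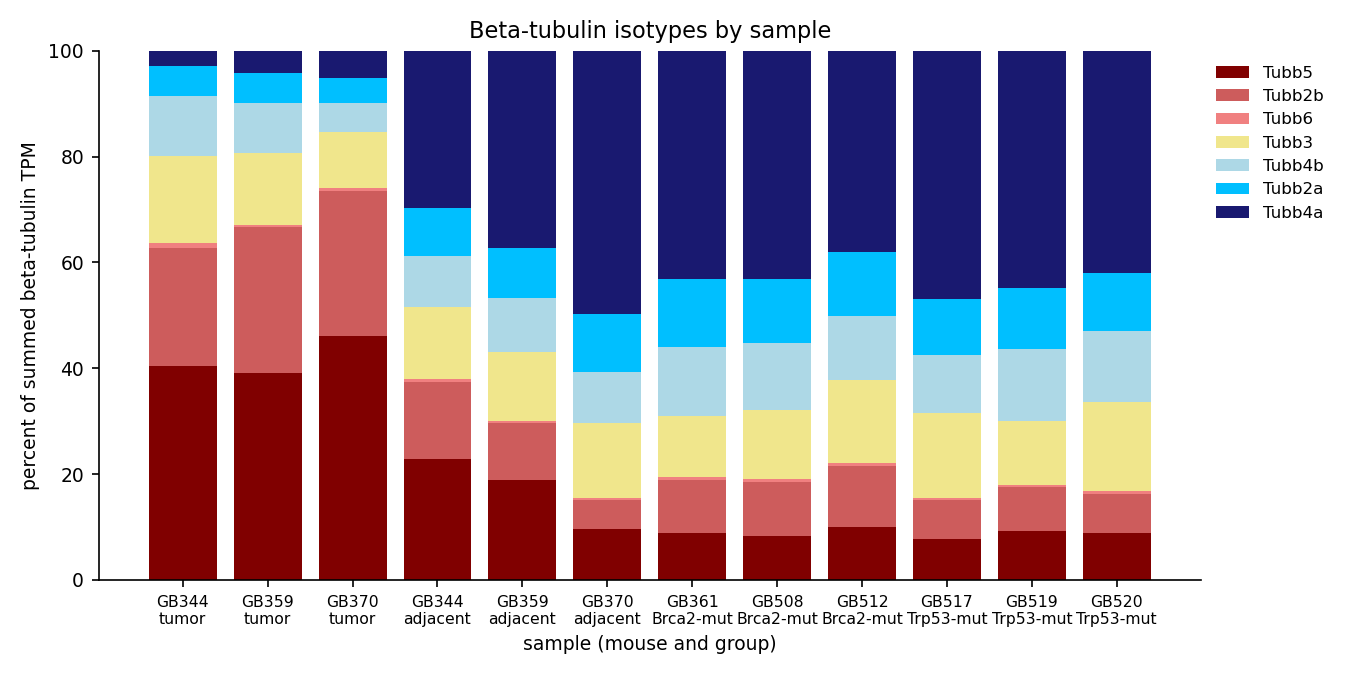
Share of each of 7 beta-tubulin genes in the summed beta-tubulin TPM (vertical axis, percent) for each of the 12 samples, labelled by mouse and group. Tubb5 and Tubb2b fill most of the bar in the 3 tumors, Tubb4a is the largest share in the 6 controls and in all 3 adjacent cerebella, and the Tubb3 share runs from 10.7% to 16.8%.

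Of 14 genes of doublecortin, stathmin, CRMP and growth cone proteins, 6 were called higher in tumors than in controls and 2 lower, with a median log2 fold change of 0.69. The growth cone membrane proteins Basp1 (816, 937 and 986 TPM in tumors, 18.9 to 45.8 TPM in controls, log2 fold change 5.19, limma adjusted p = 3.55e-08) and Marcksl1 (4.52, limma adjusted p = 1.55e-07) showed the largest rises. The stathmin Stmn3 (-1.63, limma adjusted p = 4.13e-06) and the doublecortin-like kinase Dclk1 (-1.25, limma adjusted p = 0.000442) fell. Dclk1, the closest relative of Dcx on the list, was at 42.5, 92.6 and 77.9 TPM in tumors and 132 to 191 TPM in controls, opposite in direction to Dcx.

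Relatives of the late members mostly fell. Of 16 other microtubule-associated genes, 10 were called lower and 1 higher, with a median of -1.54. Tppp, a tubulin polymerization protein known from oligodendrocytes (-4.28, limma adjusted p = 1.03e-07), and Map7 (-3.64, limma adjusted p = 3.54e-07) had the largest drops, and the plus-end protein Mapre1 (EB1) rose (1.52, limma adjusted p = 6.69e-08). Of 13 axonal transport motors, 6 were lower and 2 higher (median -0.87). The neuronal dynein chain Dync1i1 (-4.28, limma adjusted p = 1.51e-05) and the kinesin Kif5a (-2.59, limma adjusted p = 5.05e-08), a carrier of neurofilaments, fell, and Kif21b (1.51, limma adjusted p = 7.38e-07) and Dynll1 (1.11, limma adjusted p = 0.000205) rose.

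Of 9 kinases and activators that act on tau and neurofilaments, 1 was lower and 0 higher (median -0.48), a smaller share than the 35.9% of all genes called, with 6 at unadjusted p under 0.05. The gene called was Cdk5r2, an activator of Cdk5 (-4.28, limma adjusted p = 2.57e-07). Of 12 severing and anchoring genes, 3 were higher and 2 lower (median -0.19), counts near those shares of all genes. They included Fignl1 (3.38, limma adjusted p = 1.16e-07) and Nde1 (1.59, limma adjusted p = 1.80e-07), higher, and the lissencephaly gene Pafah1b1 (-1.06, limma adjusted p = 3.45e-06) and Camsap2 (-1.05, limma adjusted p = 8.47e-06), lower. Of 6 other intermediate filament genes 4 were tested. The progenitor filament Nes was called higher (1.63, limma adjusted p = 0.00262) although its samples overlapped the controls, and Synm was lower (-1.96, limma adjusted p = 9.92e-08). Vim (-0.19, limma adjusted p = 0.151) and Gfap (-0.20, limma adjusted p = 0.491) did not pass.

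**Figure D5:**
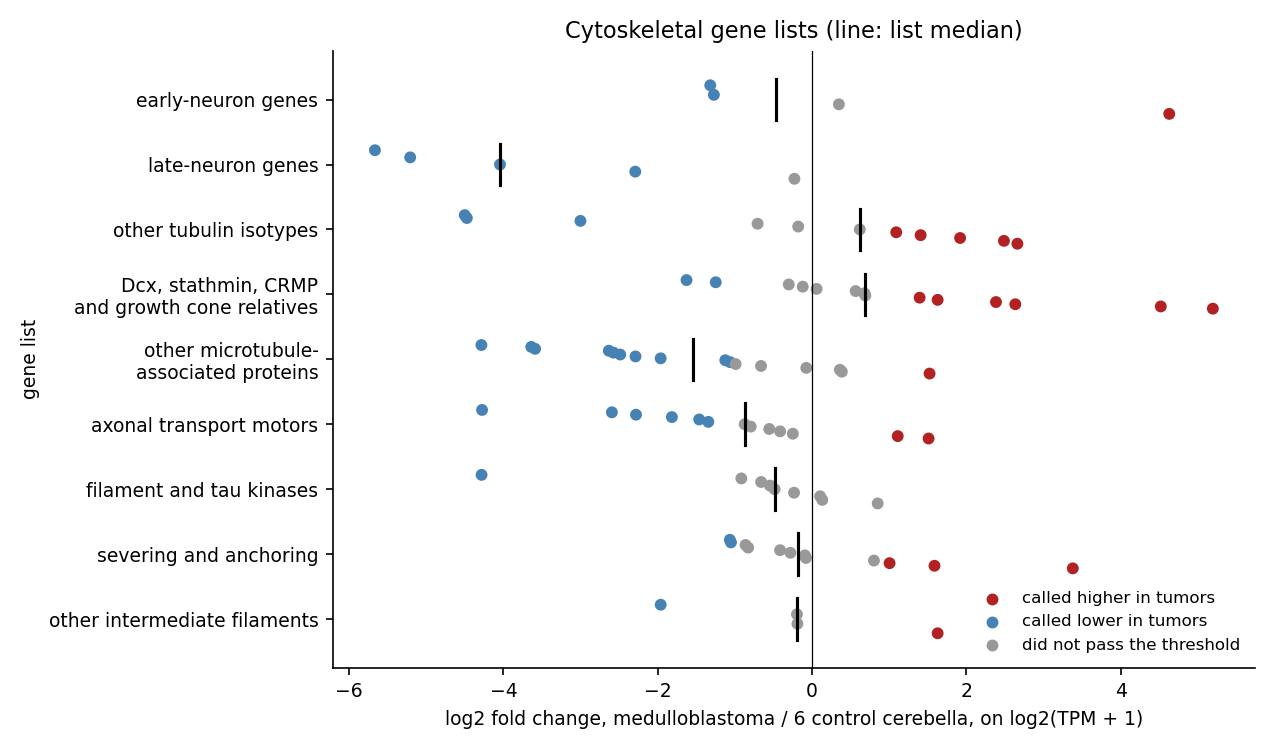
Log2 fold changes of tumors against the 6 control cerebella for the members by class and for 7 lists of related cytoskeletal genes (vertical axis). Points are genes, colored by whether they passed the threshold, and black lines are list medians, which run from -4.04 for the late-neuron genes to 0.69 for the relatives of Dcx and the stathmins.

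Against adjacent cerebellum 6 of these 7 lists gave fewer calls, and the kinase list gave 1 lower (Cdk5r2) in both comparisons. Tubulins had 3 lower and 0 higher (9 of 11 at unadjusted p under 0.05), microtubule-associated genes 9 lower and 1 higher, motors 6 lower and 0 higher, and the Dcx and stathmin relatives 1 lower and 1 higher. In adjacent against control cerebella, and between the control genotypes, limma called no gene on any of these 7 lists. The counts at unadjusted p under 0.05 were 5 of 11 tubulins, 10 of 14 Dcx and stathmin relatives and 8 of 16 microtubule-associated genes in the first of these comparisons, and 3, 2 and 3 in the second.

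Markers of other cells moved with the tumor contrast, and are given for that reason beside the members. All 6 mature granule neuron, 6 Purkinje, 6 interneuron, 6 oligodendrocyte, 5 astrocyte and Bergmann glia and 5 general neuron markers were called lower in tumors than in controls, and all 7 progenitor and proliferation markers higher. The oligodendrocyte sum was 95.7 to 318 TPM in tumors and 3455 to 5319 TPM in controls, and the general neuron sum was 232 to 482 TPM and 3479 to 4124 TPM. Purkinje markers summed to 51.5 to 285 TPM in tumors and 4438 to 7550 TPM in controls. The deep nuclei and brainstem markers did not fall as a list. Of the 4 that passed the filter 1 was called higher (Slc17a6, 1.41, limma adjusted p = 0.00149) and 0 lower, with 2 at unadjusted p under 0.05. Tumor and control samples overlapped for Slc17a6. Hoxb3 lay lower in every tumor than in every control and missed only the fold minimum (-0.778, limma adjusted p = 0.000999). Its levels were low, at 0.179 to 0.339 TPM in tumors and 0.763 to 1.55 TPM in controls. Of 4 microglia markers 1 was called higher (Aif1). Of 6 forebrain markers 2 passed the filter and both were called higher, with a sum over the list of 36.5 to 75.5 TPM in tumors and 6.25 to 9.25 TPM in controls. Their part in the levels of the members was not tested.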

How the data were processed

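RNA sequencing of 12 mouse samples was analysed from the deposited gene table, which holds TPM for 24091 genes. As described by the authors, poly(A) RNA was sequenced to 75 bp reads and quantified with Salmon 0.8.1 on the mm10 known-gene models (TxDb 3.4.0) and tximport 1.20, and the authors deposited the TPM values. TPM holds no read counts, so depth is unknown and no count model was run. Columns summed to between 999793 and 999876, and Mir6236 took 4.25% to 11.5% of them. Comparisons used limma 3.58.1 (R 4.3.3) on log2(TPM + 1) with a mean-variance trend, two-sided, over genes at 1 TPM or more in 3 or more samples, and p-values were adjusted by Benjamini-Hochberg. Fold changes on this scale understate changes of low genes. The script was tested on simulated data. Tables and figures were made with Python 3.11.15 (pandas 2.3.3, matplotlib 3.10.9). The members, lists and classes were chosen with earlier results of these data known. In each list the called genes with the 2 largest and 2 smallest fold changes were named. Tumor and adjacent samples of the same number came from the same mouse, and their deviations from group means correlated (r = 0.249, 0.176 and 0.152). Alternatives were other pseudocounts, filters, scalings, thresholds and groups in the fit, and leaving out each sample. Each mouse is 1 sample, and no batch is given in the labels.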

Additional observations from a re-analysis of the deposited data

Results flagged for a closer look

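Among the 10 members and the early minus late difference, each examined over the 6 control cerebella, only Nefl held a sample far from the others. The Brca2-WT;Trp53-mut mouse GB520 stood at 375 TPM and the other 5 controls between 298 and 319 TPM, and the gap took 0.723 of the whole range. A gap large enough to be flagged is expected by chance in about 5% of groups of this size, and 11 groups were examined. Nefm was highest in the same mouse, at 241 TPM against 173 to 218 TPM, and Nefh was not (140.0 TPM, with 149 TPM the highest). Without GB520 the log2 fold change of Nefl between the control genotypes was 0.06 in place of -0.05.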

How the results depend on the processing

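Against controls, the 8 member calls in tumors were kept under every alternative tried, except that quantile normalization took Ina below the fold minimum. Read depth, which sets the precision of low genes such as Dcx in controls, is unknown.

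With an adjusted p of 0.05 and no fold minimum, 11573 genes were called between tumors and controls, 7980 between tumors and adjacent cerebella, 2524 between adjacent and control cerebella and 71 between the control genotypes. Leaving out 1 sample at a time gave 2377 to 3482 genes for tumors against adjacent cerebella (2377 without the adjacent cerebellum of GB359), 0 to 586 for adjacent against control cerebella (0 without GB520) and 4 to 29 between the control genotypes (29 without GB361). For adjacent against control cerebella, in place of 38, limma called 4 genes with no filter, 10 with no trend, 58 under median-of-ratios scaling, 59 under quantile normalization and 60 without Mir6236. Between the control genotypes, in place of 9, it called 2 with a pseudocount of 0.01, 3 with no filter, with a 5 TPM filter, under quantile normalization or with no trend, 4 under median-of-ratios scaling or without Mir6236, and 21 with all 4 groups in the fit. In that comparison 2 genes were higher and 7 lower, and under quantile normalization 2 and 1.

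In tumors against adjacent cerebella, members called higher were 1 (Dcx) in place of 0 under quantile normalization, in a fit of all 4 groups and at an adjusted p of 0.05, and 0 to 1 leaving out samples. In adjacent against control cerebella they were 1 (Dcx) with a pseudocount of 0.01, under median-of-ratios scaling or quantile normalization, without Mir6236 and at an adjusted p of 0.05, and 0 to 1 leaving out samples. Members called lower there were 5 at an adjusted p of 0.05 and 0 to 3 leaving out samples. The causes of these changes were not tested.

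Directions turned only for members near 0. Map2 in tumors against adjacent cerebella was 0.15 under median-of-ratios scaling, 0.12 under quantile normalization and -0.24 to 0.15 leaving out samples. Between the control genotypes, median-of-ratios scaling gave Stmn2 0.00215, Nefl 0.0392 and Map2 0.0574, and quantile normalization gave Dcx 0.0151 and Map2 0.00517. Leaving out samples there gave Map1b -0.0918 to 0.0608, Nefm -0.101 to 0.139, Nefl -0.101 to 0.0645 and Map2 -0.0791 to 0.0586. The 5 TPM filter left Dcx out of that comparison.

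The early minus late difference in tumors was 2.58 with Ina in the late class, 1.81 as a log2 ratio of summed TPM, 4.55 with the 3 neurofilament chains alone as late class and 0.70 with Map2 and Mapt alone. In adjacent cerebella it was -0.45 with Map2 and Mapt alone. In Brca2-mut;Trp53-WT cerebella it was -0.84 with Ina in the early class and -0.0276 from summed TPM. In Brca2-WT;Trp53-mut cerebella these were -0.78 and 0.0306, with -0.95 for the neurofilament chains alone and -1.16 for Map2 and Mapt alone.

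Over all genes tested, the median fold change on the log2 scale was -0.11 in tumors against controls, 0.04 under quantile normalization and -0.01 under median-of-ratios scaling, and -0.14, 0.12 and 0.02 in tumors against adjacent cerebella. With the mouse as a replicate block, tumors against adjacent cerebella gave 3542 genes called, 5 members lower and 0 higher. The block changed no member call.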
